A study of Mus musculus with 12 samples.

Results

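The genes described here encode the protein import machinery of mitochondria and the assembly factors of the respiratory chain, in monocytic myeloid-derived suppressor cells (M-MDSCs) from the bone marrow of aged and young mice. They were taken by gene symbol from the deposited count table: every Timm, Tomm, Ndufaf, Coa and Sdhaf symbol followed by a digit, together with Surf1, Sco1, Sco2, Cox10, Cox11, Cox15, Cox17, Cox18, Cox19, Bcs1l, Uqcc, Atpaf1, Atpaf2 and Oxa1l. This rule found 51 of the 23420 genes in the table. No measured value entered it, but it was chosen with earlier results of these data known. Of these, 24 belong to the import machinery and 27 to assembly.

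Almost all mitochondrial proteins are made in the cytosol from nuclear genes. They enter through the translocase of the outer membrane (TOM), are guided across the intermembrane space by small TIM chaperones, and pass into the inner membrane or the matrix through the TIM22 and TIM23 translocases. Assembly factors are not part of the finished respiratory complexes: they insert subunits, deliver copper, heme or flavin, and hold intermediates together while the complexes are built. M-MDSCs can become osteoclasts, cells rich in mitochondria, and the study asked how age changes them.

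Total RNA was sequenced from cells sorted as CD11b+, Ly6G- and Ly6Chi, with 1 library from each mouse. The young group was 6 mice aged 6 months and the aged group 6 mice aged 24 months. All were male mice of the strain C57BL/6JNIA, no treatment is named for either group, and the labels set the groups apart only by age. The labels give the tibia as the source of the bone marrow, and the cells were sequenced without culture. Between 4613239 and 9079237 fragments per young mouse and between 8737941 and 16300374 per aged mouse had been counted on genes.

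Levels are given in CPM, a gene's counts relative to the size of its library after TMM scaling, and log2 fold changes are aged over young, with their standard error (SE). A gene was called when its adjusted p was below 0.05 in edgeR's quasi-likelihood test, with Benjamini-Hochberg adjustment over all 9742 genes with enough counts. In bulk RNA, fewer cells of a type and less RNA per cell cannot be told apart.

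Neutrophil genes were high in these cells beside the monocyte genes, although the gate was Ly6G- and Ly6g itself was not analysed here. Ly6c2, the gene of the sorted Ly6C antigen, stood at 500 ± 100 CPM (SD, n = 6) in young mice and 727 ± 74.6 CPM in aged mice. Ccr2, the chemokine receptor of classical monocytes, stood at 37.1 ± 14.3 CPM and 31.3 ± 22.2 CPM. The 8 monocyte genes examined summed to 14601 to 19235 CPM in young mice and 11980 to 17247 CPM in aged mice. Lyz2 alone had means of 12350 and 11220 CPM. Of the 8, Ly6c2 (adjusted p = 0.00265 in edgeR) and Ctss were called higher, Itgam was called lower and 5 were not called. Ly6c2 was lowest in young mice 5 and 6, at 367 and 387 CPM. The 7 neutrophil genes examined (Ltf, Camp, Ngp, Retnlg, Cxcr2, Mmp8 and Lcn2) summed to 61554 to 84175 CPM in young mice and 76895 to 96858 CPM in aged mice, and 4 of 7 were called higher (edgeR called 0 of 7 without young mice 5 and 6, where 3 had an unadjusted p below 0.05, and 0 of 7 after a correction for gene length, where 0 did). The 7 macrophage genes were all called higher (6 of 7 without young mice 5 and 6), with sums of 62.3 to 81.9 CPM in young mice and 72.9 to 887 CPM in aged mice. Young mice 5 and 6 stood apart from the other young mice: their 7 proliferation genes summed to 1217 and 1176 CPM, against 607 to 760 CPM in the other young mice and 312 to 717 CPM in aged mice. Most of these sums came from Mki67 (674 and 598 CPM) and Top2a (390 and 417 CPM), and the other 5 genes were not called. The main counts of calls are also given without these mice. Erythroid genes had too few counts for edgeR, with sums of 0.391 to 1.29 CPM in young and 1.28 to 17.1 CPM in aged mice, and DESeq2 called 4 of 4 tested higher, where it called 19.3% of all genes tested higher.

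Of the 51 genes, 41 had enough counts to be tested. In aged mice, 16 of the 41 (39.0%) were called higher, where 22.4% of all genes tested were called higher. Tomm34 was the only gene of the 41 called lower, where 23.0% of all genes tested were called lower, and 24 were not called. The count of 16 was 8 without young mice 5 and 6 (14.1% of all genes tested) and 4 after a correction for gene length (18.3% of all genes tested). The log2 fold change was above 0 for 34 and below 0 for 7, with a median of 0.38, against a median of 0.01 over all genes tested. The 6 aged values lay above all 6 young values for 7 of the 41 (9.68% of all genes tested) and below them for Tomm34 alone (12.1% of all genes tested).

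**Figure D1:**
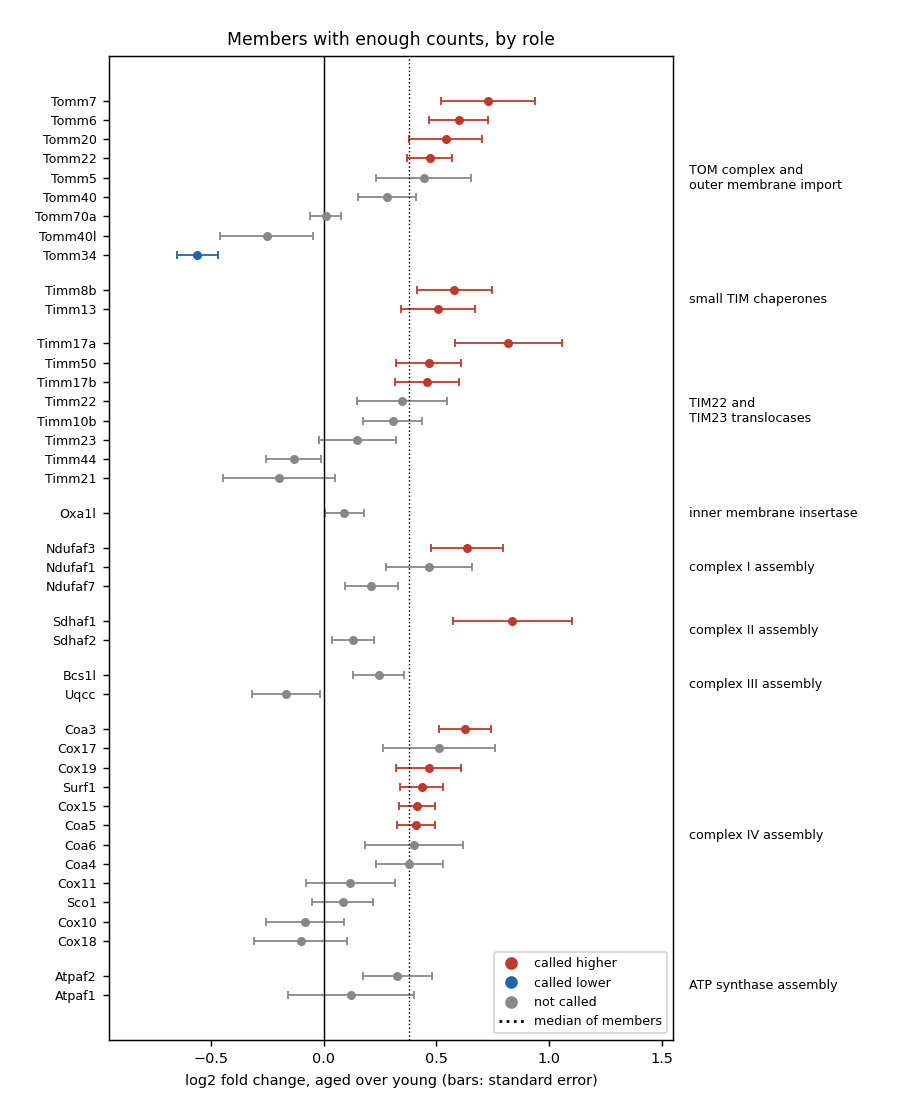
Log2 fold change, aged over young, of the 41 import and assembly genes with enough counts (x axis), grouped by role and ordered by size within a role. Points are edgeR estimates from 6 aged and 6 young mice and bars are standard errors. The 16 genes called higher are red, Tomm34 is blue, and the dotted line marks the median of 0.38.

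Promoters of 6 genes are shown because these genes carry most of the results below: Tomm34, the gene called lower; Tomm22 and Tomm20, receptors of the same translocase that were called higher; Cox15 and Coa5, complex IV assembly genes called in every alternative analysis; and Timm8b, which starts close to Sdhd, a gene of complex II. Each run is 300 bases, 250 before and 50 after the gene start, from RefSeq on GRCm38.p6, and is read 5′ to 3′ on the strand of the gene. The windows are chr2:164071053-164071352 (minus strand), chr15:79670618-79670917 (plus strand), chr8:126945872-126946171 (minus strand), chr19:43752951-43753250 (minus strand), chr1:37430054-37430353 (minus strand) and chr9:50603651-50603950 (plus strand). Tomm34 has another annotated start, which is not shown. On mm10, the genes span chr2:164053541-164071102 (Tomm34, 7 exon blocks), chr15:79670868-79672862 (Tomm22, 4), chr8:126930664-126945921 (Tomm20, 5), chr19:43733254-43753000 (Cox15, 9), chr1:37417085-37430103 (Coa5, 3) and chr9:50603901-50605320 (Timm8b, 2). Capitals mark matches on either strand to GABPA (CCGGAAG), NRF1 (GCGCA and GCGC with any base, N, between them) or ERRA (TCAAGGTCA), names of factors known for nuclear genes of mitochondria.
Tomm34: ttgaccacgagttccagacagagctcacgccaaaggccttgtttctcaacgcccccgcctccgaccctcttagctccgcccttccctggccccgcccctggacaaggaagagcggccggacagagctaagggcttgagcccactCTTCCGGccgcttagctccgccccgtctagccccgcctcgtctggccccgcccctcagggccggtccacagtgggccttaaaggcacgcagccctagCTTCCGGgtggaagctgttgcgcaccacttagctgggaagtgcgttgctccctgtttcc
Tomm22: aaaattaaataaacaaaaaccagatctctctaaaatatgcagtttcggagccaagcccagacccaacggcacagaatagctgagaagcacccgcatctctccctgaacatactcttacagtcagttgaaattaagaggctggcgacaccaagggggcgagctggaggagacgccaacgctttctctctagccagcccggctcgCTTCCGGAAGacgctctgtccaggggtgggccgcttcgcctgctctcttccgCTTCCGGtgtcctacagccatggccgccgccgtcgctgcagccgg
Tomm20: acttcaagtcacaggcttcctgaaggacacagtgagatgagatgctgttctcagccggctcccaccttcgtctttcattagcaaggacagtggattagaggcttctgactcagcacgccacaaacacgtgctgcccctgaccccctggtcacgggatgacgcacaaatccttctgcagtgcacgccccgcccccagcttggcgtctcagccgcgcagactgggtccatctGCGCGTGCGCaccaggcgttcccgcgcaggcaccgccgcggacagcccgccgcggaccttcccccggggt
Cox15: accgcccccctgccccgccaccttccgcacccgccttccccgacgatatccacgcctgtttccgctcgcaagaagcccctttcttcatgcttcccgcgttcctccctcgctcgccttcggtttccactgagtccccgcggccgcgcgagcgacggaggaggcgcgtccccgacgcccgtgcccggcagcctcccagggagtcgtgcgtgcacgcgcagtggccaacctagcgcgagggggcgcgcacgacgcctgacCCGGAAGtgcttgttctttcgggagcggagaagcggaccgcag
Coa5: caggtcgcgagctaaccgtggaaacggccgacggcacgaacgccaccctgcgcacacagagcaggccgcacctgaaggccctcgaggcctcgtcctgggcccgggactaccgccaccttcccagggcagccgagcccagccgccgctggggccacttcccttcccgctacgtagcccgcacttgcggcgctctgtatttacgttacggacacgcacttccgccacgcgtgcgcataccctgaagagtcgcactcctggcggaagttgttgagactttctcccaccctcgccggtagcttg
Timm8b: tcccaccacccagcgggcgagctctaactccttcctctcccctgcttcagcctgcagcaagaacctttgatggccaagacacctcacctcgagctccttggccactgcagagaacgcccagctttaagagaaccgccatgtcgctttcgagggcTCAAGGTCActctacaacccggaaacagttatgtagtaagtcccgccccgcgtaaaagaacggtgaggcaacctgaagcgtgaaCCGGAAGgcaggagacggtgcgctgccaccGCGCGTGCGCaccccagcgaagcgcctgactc

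The promoter of Tomm34, which was called lower, and that of Tomm22, which was called higher, both held GABPA letters. The window of Coa5 held no match to any of the 5 motifs searched. Of the 51 genes, 44 were in the RefSeq table, and GABPA letters were found in a promoter of 17 of them (38.6%), against 22.8% of the 7380 tested genes in the table. YY1 letters (AANATGGCG) were found for 7 (15.9%, against 7.18%) and NRF1 letters for 5 (11.4%, against 12.8%). Counted per promoter and not per gene, the shares of all 32851 promoters were 8.86% for GABPA, 2.38% for YY1 and 4.6% for NRF1. CREB letters (TGACGTCA) were found only in Oxa1l and ERRA letters only in Timm8b. Among tested genes with a promoter, 5 of the 15 higher genes held GABPA letters, as did 9 of the 19 that were not called. Matches of different motifs did not overlap each other, while a pair of GABPA matches on opposite strands overlapped in Tomm22, and another in Timm10. Ndufaf6, Coa6, Cox17, Cox18, Timm21, Tomm40l and Tomm7 were not in the table. A match is a description of letters in the window and not a measured site.

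Of the 9 tested Tomm genes, which serve the outer membrane, 4 were called higher (Tomm7, Tomm6, Tomm20 and Tomm22), Tomm34 was called lower, and 4 were not called. Of all genes tested, 22.4% were called higher and 23.0% lower. The count of 4 was 3 without young mice 5 and 6, where 14.1% of all genes tested were called higher. It was 2 after length correction (Tomm20 and Tomm6), where 18.3% were, with Tomm34 lower each time. Tomm34 encodes a cytosolic co-chaperone of HSP70 and HSP90 that keeps precursors unfolded before import. Its level was 38.6, 41.9 and 52.3 CPM (lowest, median and highest) in young mice and 28.4, 30.3 and 31.6 CPM in aged mice. Every aged mouse lay below every young mouse, and young mice 5 and 6 were the highest of the 12. The mean fell from 44.3 ± 6.38 to 30.2 ± 1.40 CPM (SD, n = 6), a log2 fold change of -0.56 (SE 0.09, adjusted p = 0.000302 in edgeR). Without young mice 5 and 6 the log2 fold change was -0.44 (adjusted p = 0.000676), and Tomm34 was called lower in all 26 alternative analyses.

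Of the receptor genes, Tomm22 and Tomm20 were called higher and Tomm70a was not called. Tomm22, the central receptor that also holds the TOM complex together, stood at 47.9, 63.2 and 71.0 CPM in young mice and 73.0, 83.0 and 93.5 CPM in aged mice. The groups did not overlap, and the log2 fold change was 0.47 (SE 0.10, adjusted p = 0.00190), or 0.13 after length correction (adjusted p = 0.138). Tomm20, the receptor for classical presequences, stood at 6.82, 9.84 and 12.2 CPM in young mice and 11.4, 13.2 and 17.3 CPM in aged mice. The groups overlapped, with 4 of 6 aged mice above all young mice, and the log2 fold change was 0.54 (SE 0.16, adjusted p = 0.0136). Without young mice 5 and 6 its value was 0.32 and it was not called (adjusted p = 0.106). Tomm70a, the receptor for carrier proteins, stood at 43.0, 44.8 and 46.1 CPM in young mice and 37.7, 46.7 and 48.2 CPM in aged mice, with a log2 fold change of 0.01 (SE 0.07, adjusted p = 0.928). The differences between these genes were not tested.

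**Figure D2:**
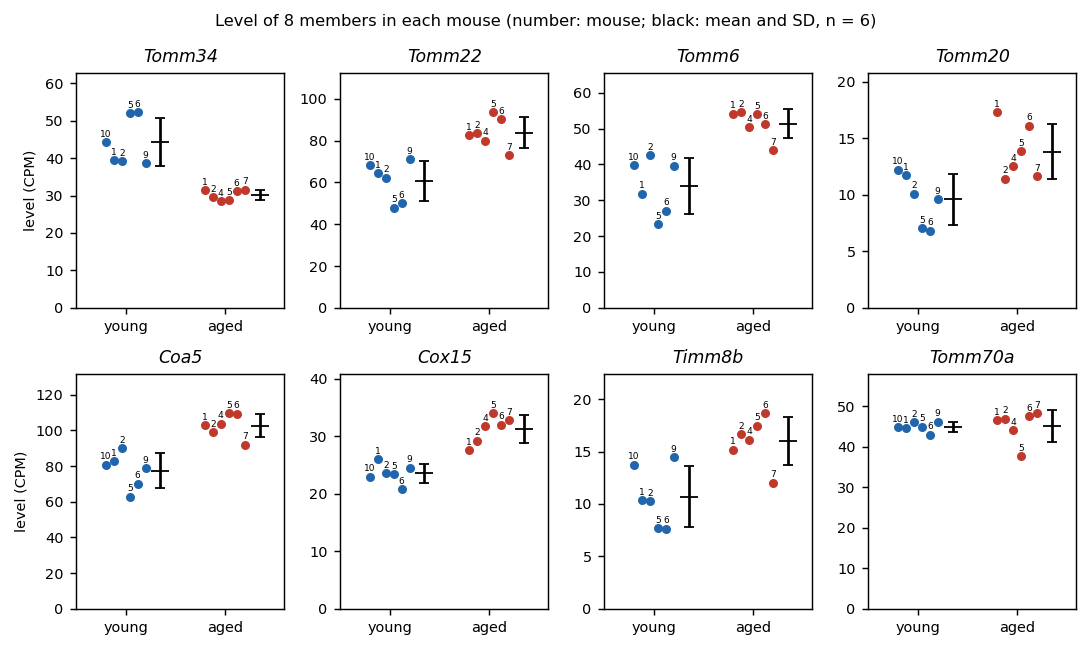
Level in CPM (y axis, from 0) of 8 genes in each of 6 young (blue) and 6 aged (red) mice, with the number of the mouse above its point, and the mean and SD in black. Aged mice lie below all young mice for Tomm34 and above all young mice for Tomm22, Tomm6, Coa5 and Cox15; for Tomm20 and Timm8b the groups overlap, and Tomm70a has means of 44.9 and 45.1 CPM.

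The small Tomm subunits surround the channel and stabilize it. Tomm7 had the largest log2 fold change of the Tomm genes, 0.73 (SE 0.21, adjusted p = 0.0107), or 0.43 after length correction (adjusted p = 0.0661). Its level was 7.54, 16.5 and 23.0 CPM in young mice and 20.8, 28.6 and 30.7 CPM in aged mice, and only aged mouse 7 lay within the young range. Tomm6 stood at 23.3, 35.7 and 42.7 CPM in young mice and 43.9, 52.6 and 54.5 CPM in aged mice. The groups did not overlap and its log2 fold change was 0.60 (SE 0.13, adjusted p = 0.00213). Tomm5 had a log2 fold change of 0.44 (SE 0.21) and was not called (adjusted p = 0.0973). The channel gene Tomm40 was not called either, at 7.29 ± 0.97 CPM in young and 8.79 ± 1.18 CPM in aged mice (log2 fold change 0.28, SE 0.13, adjusted p = 0.0817). Tomm40l, its paralog, had a log2 fold change of -0.25 (SE 0.21, adjusted p = 0.333). Per kilobase of exon, Tomm22 had the highest mean level of the 51 genes, at 59.2 CPM per kilobase in young and 81.8 in aged mice, followed by Tomm6 at 33.8 and 51.0.

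Small TIM chaperones carry hydrophobic precursors through the intermembrane space. Of 6 genes, only Timm8b and Timm13 had enough counts, and both were called higher. Neither was called without young mice 5 and 6 (log2 fold changes 0.35 and 0.29, adjusted p = 0.0729 and 0.162) or after length correction (-0.0064 and 0.23, adjusted p = 0.966 and 0.224). Timm8b stood at 7.64, 10.3 and 14.5 CPM in young mice and 12.03, 16.4 and 18.6 CPM in aged mice (log2 fold change 0.58, SE 0.17, adjusted p = 0.0107). The groups overlapped through aged mouse 7 and young mice 9 and 10. Timm13 stood at 3.87, 5.44 and 7.22 CPM in young mice and 5.76, 7.89 and 8.02 CPM in aged mice (log2 fold change 0.51, SE 0.16, adjusted p = 0.0206). The call of Timm13 was lost when young mouse 5 or young mouse 6 was left out. Their partners in the intermembrane space, Timm9, Timm10, Timm8a1 and Timm8a2, had at most 8 counts in any mouse and were not tested.

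Among the 8 genes of the inner membrane translocases, 3 were called higher (37.5%, where 22.4% of all genes tested were) and 5 were not called. In edgeR, 0 of the 8 were called without young mice 5 and 6, where 3 were higher at an unadjusted p below 0.05, and 0 after length correction, where 1 was higher and 1 lower at that p. The median of 0.33 became 0.16 and 0.06. Timm17a, a core subunit of TIM23, had the largest change of the import genes, with a log2 fold change of 0.82 (SE 0.24, adjusted p = 0.0115). Its counts were low, at 1.08, 2.003 and 3.24 CPM in young mice and 2.91, 3.53 and 4.57 CPM in aged mice, with 9 to 48 counts per mouse, and 5 of the 6 young mice lay below all aged mice. Timm17b, the paralog that takes the same place in the complex, stood at 25.7 ± 5.49 CPM in young and 35.0 ± 5.67 CPM in aged mice (log2 fold change 0.46, SE 0.14, adjusted p = 0.0171). Timm50, the presequence receptor of TIM23, was called higher at 5.43 ± 0.99 CPM in young and 7.49 ± 0.88 CPM in aged mice (log2 fold change 0.47, SE 0.15, adjusted p = 0.0169), with no overlap of the groups.

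The channel and motor genes of the same translocase were not called. Timm23, the channel itself, had a log2 fold change of 0.15 (SE 0.17, adjusted p = 0.488). Timm44, which tethers the import motor, had -0.13 (SE 0.12, adjusted p = 0.384). Timm21, which links TIM23 to the TOM complex and to respiratory intermediates, had the lowest value of the translocase genes, -0.20 (SE 0.25, adjusted p = 0.540), with 1.29, 3.08 and 4.28 CPM in young mice and 1.89, 2.73 and 4.06 CPM in aged mice. In the TIM22 carrier pathway, Timm22 had 0.35 (SE 0.20, adjusted p = 0.167) and Timm10b had 0.31 (SE 0.13, adjusted p = 0.0667). Oxa1l, the insertase that places proteins into the inner membrane from the matrix side, stood at 16.8, 19.7 and 22.3 CPM in young mice and 19.1, 21.3 and 22.9 CPM in aged mice and was not called (log2 fold change 0.09, SE 0.09, adjusted p = 0.404).

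Other import genes, outside the symbol rule, include the motor of TIM23, the sorting machinery of the outer membrane and the proteases that trim precursors. Of 24 tested among 25 listed, 9 were called higher, 2 lower and 13 were not called, with a median of 0.29. The shares of all genes tested were 22.4% higher and 23.0% lower. The 9 include Vdac1, Vdac2 and Vdac3, which are metabolite channels of the outer membrane. Without young mice 5 and 6, edgeR called 5 of 24 higher and 0 lower, with 0 lower also at an unadjusted p below 0.05. In that fit, 14.1% of all genes tested were called higher and 17.9% lower. After length correction 3 of 24 were called higher (18.3% of all genes tested) and 1 lower (16.5%). Dnajc15, a J-protein of the import motor, had the highest value (0.77, SE 0.20, adjusted p = 0.00597). Its value was 0.46 without those mice (adjusted p = 0.0271) and 0.28 after length correction, where it was not called (adjusted p = 0.168). Pam16, the partner that restrains the motor's J-proteins, had the lowest (-1.09, SE 0.43, adjusted p = 0.0481). Its value without those mice was -0.27 and was not called (adjusted p = 0.630), nor did DESeq2 call it (adjusted p = 0.0518). After length correction its value was -1.80, and Pam16 was the 1 gene called lower (adjusted p = 0.0141). Both act at the TIM23 motor, where Timm44 was not called.

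Complex I assembly was measured through 3 of 7 genes, since Ndufaf2, Ndufaf4, Ndufaf5 and Ndufaf6 had too few counts. Ndufaf3, an early assembly factor of complex I, was called higher. It stood at 4.77, 6.96 and 9.13 CPM in young mice and 8.83, 11.1 and 13.3 CPM in aged mice, with 5 of the 6 aged mice above all young mice (log2 fold change 0.64, SE 0.16, adjusted p = 0.00507). After length correction its value was 0.31 and it was not called (adjusted p = 0.0744). Ndufaf7, a methyltransferase of a complex I subunit, stood at 8.66, 11.2 and 13.4 CPM in young and 10.9, 12.6 and 14.5 CPM in aged mice and was not called (0.21, SE 0.12, adjusted p = 0.153). Ndufaf1, a factor for the membrane arm, had 0.47 (SE 0.19, adjusted p = 0.0572) and was called in 8 of 26 alternative analyses. Of the 34 tested subunit genes of complex I, 31 were called higher, with a median of 0.63, against 25 of 35 without young mice 5 and 6 (median 0.44) and 7 of 34 after length correction (0.19).

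For complex II, Sdhaf1, which serves the iron-sulfur subunit, had the largest log2 fold change of the 41 genes, 0.84 (SE 0.26, adjusted p = 0.0180). It also had the fewest counts of the 41. Its level was 0.651, 1.06 and 1.56 CPM in young mice and 1.28, 2.06 and 2.45 CPM in aged mice, from 4 to 12 and 11 to 25 counts. The call was lost without young mouse 5, and after length correction (0.48, adjusted p = 0.146). Sdhaf2, which adds flavin to the catalytic subunit, stood at 33.4, 34.4 and 41.4 CPM in young and 32.1, 38.9 and 45.3 CPM in aged mice and was not called (0.13, SE 0.09, adjusted p = 0.264).

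Neither gene of complex III assembly was called by edgeR, DESeq2 or limma-voom, and Bcs1l had an unadjusted p of 0.0473 in edgeR. Bcs1l, which inserts the Rieske iron-sulfur protein, stood at 7.42, 8.56 and 9.22 CPM in young and 7.81, 10.03 and 11.6 CPM in aged mice (0.24, SE 0.11, adjusted p = 0.0900). Uqcc, a factor for cytochrome b, stood at 5.09, 6.14 and 7.81 CPM in young and 4.31, 5.71 and 6.70 CPM in aged mice (-0.17, SE 0.15, adjusted p = 0.383). The subunit genes of the same complex were all called higher, 9 of 9, with a median of 0.70, against 7 of 9 without young mice 5 and 6 (median 0.44) and 4 of 9 after length correction (0.27).

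Complex IV assembly held 5 of the 7 assembly genes that were called higher: Coa3, Coa5, Cox15, Cox19 and Surf1, of 12 tested. Of all genes tested, 22.4% were called higher with all 12 mice, 14.1% without young mice 5 and 6 and 18.3% after length correction. The count of 5 was 4 without young mice 5 and 6 (not Cox19) and 2 after length correction (Coa5 and Cox15). Coa3, an early factor for the catalytic subunit COX1, had the smallest p and the largest change of this group. It stood at 10.9, 12.9 and 17.6 CPM in young and 18.5, 20.4 and 24.2 CPM in aged mice with no overlap (0.63, SE 0.11, adjusted p = 0.000663). After length correction its value was 0.14 (adjusted p = 0.296), below those of Cox15 and Coa5. Coa5 is needed for an early step of complex IV. Its level was 62.7, 79.7 and 90.0 CPM in young and 91.9, 103 and 110 CPM in aged mice, again with no overlap (0.41, SE 0.08, adjusted p = 0.00127). Surf1, which acts on COX1 and its heme, stood at 13.1 ± 1.04 CPM in young and 17.8 ± 1.86 CPM in aged mice with no overlap (0.43, SE 0.10, adjusted p = 0.00222), and had 0.14 after length correction (adjusted p = 0.264). Per kilobase of exon, Coa5 had the highest mean of the assembly genes in young mice (20.1 CPM per kilobase, Coa3 18.5) and Coa3 the highest in aged mice (28.7, Coa5 26.6).

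Of the heme a enzymes, Cox15 was called higher and Cox10 was not called, and the difference between them was not tested. Cox15, which makes heme a in the last step, stood at 20.8, 23.5 and 25.98 CPM in young and 27.5, 31.9 and 34.0 CPM in aged mice with no overlap (0.41, SE 0.08, adjusted p = 0.000936). Cox10, the enzyme before it, stood at 4.96 ± 0.93 CPM in young and 4.65 ± 0.98 CPM in aged mice (-0.08, SE 0.17, adjusted p = 0.721).

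Copper delivery genes were mostly not called. Cox19, a copper-handling protein of the intermembrane space, was called higher at 7.65 ± 1.33 CPM in young and 10.6 ± 1.96 CPM in aged mice (0.47, SE 0.15, adjusted p = 0.0168). Cox17, the copper chaperone that feeds the pathway, had 0.51 (SE 0.25, adjusted p = 0.103), with its lowest values in young mice 5 and 6, and was called in 3 of 26 alternative analyses. Sco1 (0.08, SE 0.13), Cox11 (0.12, SE 0.20), Coa4 (0.38, SE 0.15) and Coa6 (0.40, SE 0.22) were not called, with adjusted p from 0.0503 for Coa4 to 0.755 for Cox11. Coa4 was called in 10 of 26 alternative analyses, among them limma-voom, but not without young mice 5 and 6 (0.15, adjusted p = 0.338). Cox18, which helps COX2 through the membrane, had the lowest value of the complex IV genes, -0.10 (SE 0.21, adjusted p = 0.716), at 1.56, 1.72 and 2.13 CPM in young and 1.05, 1.68 and 2.12 CPM in aged mice. Sco2, the copper protein paired with Sco1, had at most 5 counts in any mouse. Its exons share 851 of 1145 bases with Tymp on the same strand, and the counting command did not ask for fragments that fall on several genes to be counted, so its low count does not show a low level. Of the 12 tested subunit genes of complex IV, 11 were called higher, with a median of 0.73, again 11 of 12 without young mice 5 and 6 (median 0.52) and 5 of 12 after length correction (0.17).

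Neither ATP synthase assembly gene was called by edgeR, DESeq2 or limma-voom, and the smaller unadjusted p in edgeR was 0.0510, for Atpaf2. Atpaf2, the chaperone of the alpha subunit, stood at 4.07, 4.51 and 6.06 CPM in young and 5.33, 5.75 and 7.34 CPM in aged mice (0.33, SE 0.15, adjusted p = 0.0956). Atpaf1, the chaperone of the beta subunit, stood at 0.977, 2.01 and 2.72 CPM in young and 1.33, 1.80 and 3.15 CPM in aged mice (0.12, SE 0.28, adjusted p = 0.748). Of 16 tested subunit genes of ATP synthase, 14 were called higher, with a median of 0.61, against 10 of 16 without young mice 5 and 6 (median 0.36) and 4 of 16 after length correction (0.13). Assembly genes outside the symbol rule had a median of 0.21: 5 of 21 tested (23.8%) were called higher, near the 22.4% of all genes tested, and 16 were not called. The count was 3 higher without young mice 5 and 6 (14.1% of all genes tested). After length correction 1 was higher (18.3% of all genes tested) and 1 lower (16.5%). The highest was Slirp (0.65, SE 0.24, adjusted p = 0.0397), an RNA-binding protein of mitochondrial mRNAs. Its value was 0.34 without young mice 5 and 6 (adjusted p = 0.254) and 0.0018 after length correction (adjusted p = 0.995). The lowest was Cox20 (-0.11, SE 0.19, adjusted p = 0.666), a chaperone of COX2 that was the 1 called lower after length correction (-0.81, adjusted p = 0.0130).

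Set side by side, the subunits that these factors build had a higher median than the assembly genes, 0.65 against 0.35, or 0.19 against 0.12 after length correction. The 75 tested nuclear subunit genes of the respiratory chain and ATP synthase had 68 of 75 called higher, and the 22 tested assembly genes 7 of 22. The 19 tested import genes had a median of 0.44 (9 of 19 higher, 1 lower). The 72 tested mitochondrial ribosomal protein genes had 0.41, with 31 (43.1%) higher and 2 lower, where 22.4% of all genes tested were higher. Without young mice 5 and 6, the medians were 0.44 for subunits (56 of 76 higher), 0.16 for assembly genes (5 of 22), 0.25 for import genes (3 of 19) and 0.28 for mitochondrial ribosomal protein genes (15 of 72, with 1 lower). After length correction they were 0.19 (23 of 75 higher), 0.12 (2 of 22), 0.11 (2 of 19) and 0.07 (8 of 72, with 5 lower). Of all genes tested, 14.1% were called higher and 17.9% lower without those mice. After length correction these shares were 18.3% and 16.5%. The subunit genes had a median length of 681 bases, the assembly genes 1846, the import genes 1225 and the ribosomal protein genes 1060. The medians are descriptions and were not tested against each other.

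The level of the 41 genes differed between mice of the same age. The median deviation of the 41 genes from the mean of the 12 mice, on the log2 scale, ranged from -0.34 to 0.04 among young mice and from 0.03 to 0.25 among aged mice. Young mice 5 and 6 had the lowest medians, -0.32 and -0.34, and were the lowest of all 12 mice for 10 and 14 of the 41 genes. Aged mouse 7 had the lowest median of the aged mice, 0.03, just under that of young mouse 9, 0.04. The same mice stood out in the respiratory subunits, with median deviations of -0.75 and -0.72 in young mice 5 and 6 and 0.14 in aged mouse 7. Neutrophil genes summed to 61554 and 65580 CPM in young mice 5 and 6, the lowest of the 12. Aged mouse 7 had the highest neutrophil sum of the 12, at 96858 CPM, and the highest proliferation sum of the aged mice, at 717 CPM against 312 to 463 CPM in the others. Macrophage genes summed to 72.9 CPM in aged mouse 5, the lowest of the aged mice, and to 887 CPM in aged mouse 1, the highest, and these mice had the highest medians of the 41 genes, 0.25 and 0.24. The part of proliferating, neutrophil-like, macrophage and erythroid cells in the result was not tested.

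**Figure D3:**
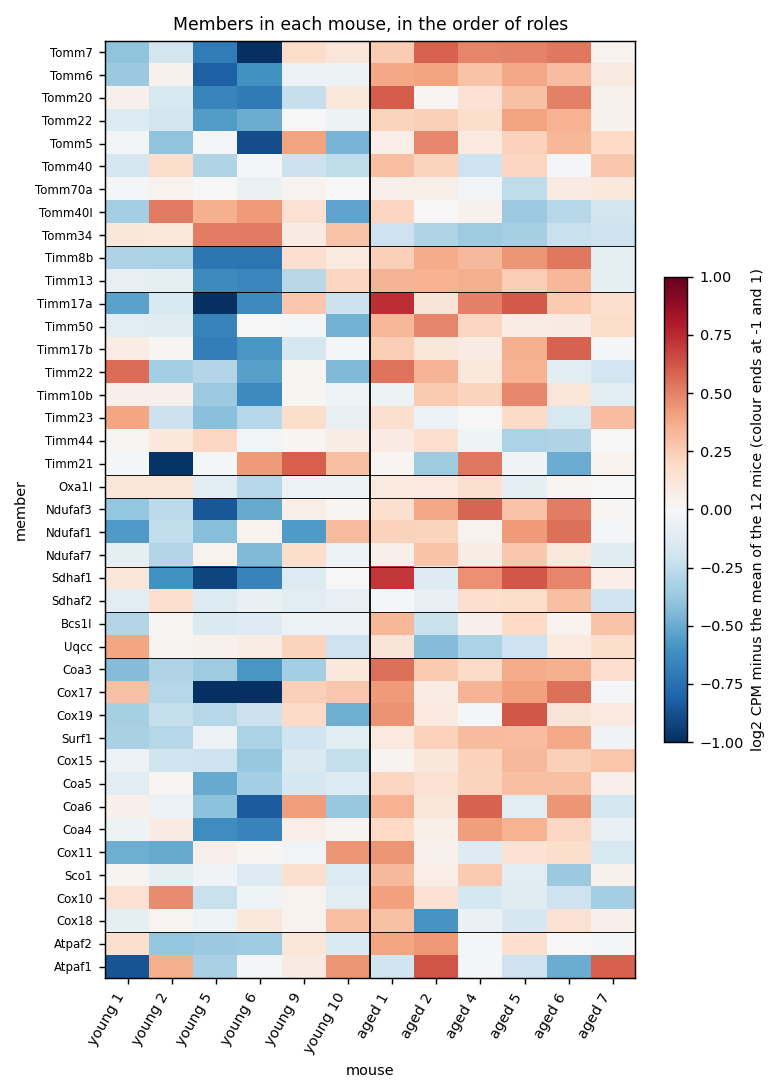
Log2 CPM of the 41 tested genes (rows, by role) in each mouse (columns, young left and aged right of the line), as the difference from the mean of the 12 mice. Blue columns mark young mice 5 and 6, with median deviations of -0.32 and -0.34, and Tomm34 is highest in these mice.

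Without young mice 5 and 6, a comparison chosen after the values were seen, 8 of 41 genes were called higher, where 14.1% of all genes tested were, and the median was 0.19. The 8 were Tomm22, Tomm6, Tomm7, Ndufaf3, Coa3, Coa5, Cox15 and Surf1. Timm17a, Timm17b, Timm13, Timm8b, Timm50, Tomm20, Sdhaf1 and Cox19 were no longer called, with log2 fold changes of 0.25 to 0.56. Tomm34 was still the only gene called lower (17.9% of all genes tested). With only the 3 aged mice after the gap in the file numbers, 10 of 41 genes were called higher, where 15.3% of all genes tested were.

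Fold changes also moved with gene length over the whole table. Spearman's rho of log2 fold change on length over exons was -0.48 across the 9742 genes tested and -0.58 across the 41, a description over genes that share libraries. The 41 genes were short, with a median length of 1451 bases against 2890 bases for all genes tested. With all genes tested put into 3 classes of about equal number, 41.0% of the short class (up to 2161 bases) were called higher, and so were 13 of 26 import and assembly genes, with medians of 0.26 and 0.46. In the middle class (up to 3800 bases), 18.7% of all genes were called higher, while of 11 import and assembly genes Tomm34 was called lower and the others were not called. In the long class, 7.55% of all genes were called higher, and of 4 import and assembly genes 3 were: Tomm20, Coa5 and Cox15.

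**Figure D4:**
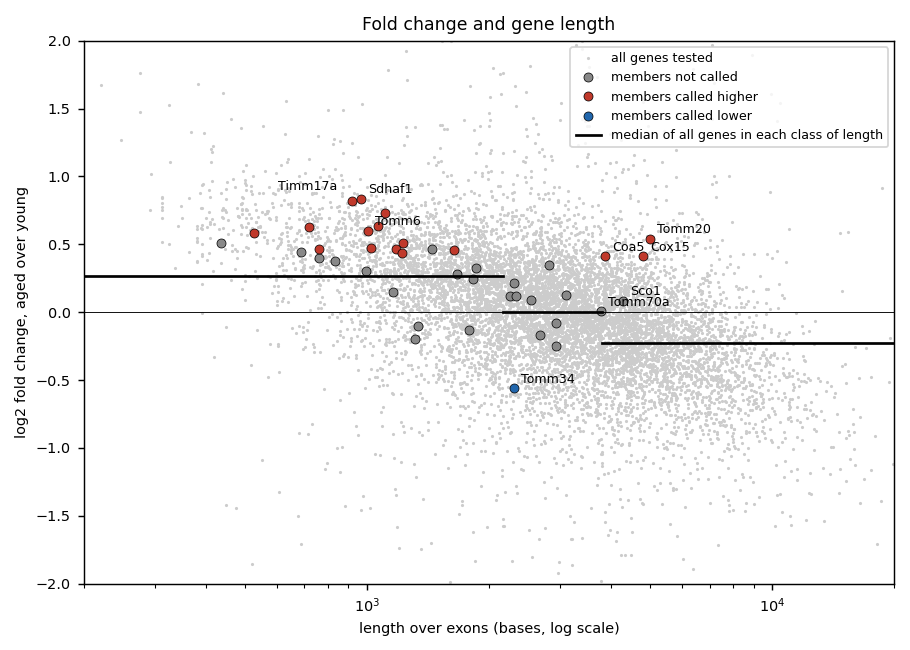
Log2 fold change, aged over young (y axis), against length over exons in bases (x axis, log scale) for all 9742 genes tested (grey) and the 41 import and assembly genes (large points). Black lines are the medians of all genes in each of 3 classes of length, 0.26, 0.00 and -0.23; Tomm20, Coa5 and Cox15 lie above, and Tomm34 below, the median of their class. Genes outside -2 to 2 or 200 to 20000 bases are not drawn.

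After a correction of each library for gene length, 4 of 41 genes were called higher (9.76%), where 18.3% of all genes tested were: Tomm20 (0.73), Cox15 (0.59), Coa5 (0.51) and Tomm6 (0.26). Tomm34 was called lower at -0.62 (16.5% of all genes tested), and the median of the 41 genes was 0.11. The values of Cox19 and Timm8b turned to -0.011 and -0.0064. Those of Cox17, Coa4, Coa6, Tomm5, Timm10b and Timm23, which were not called in either fit, also turned below 0. Every young mouse had a lower file number than every aged mouse, so a difference that follows these numbers and age cannot be told apart.

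**Figure D5:**
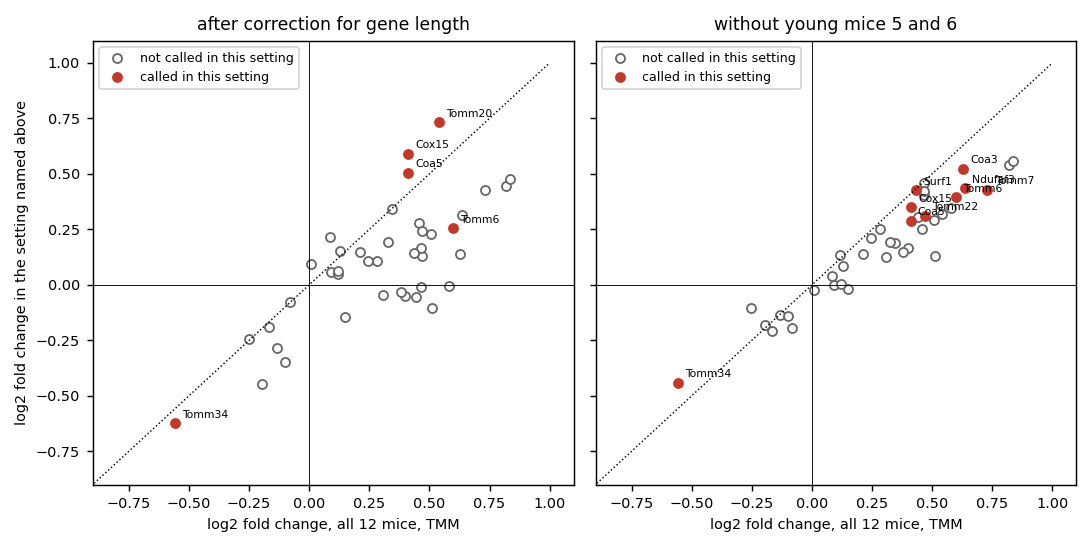
Log2 fold change of the 41 genes in all 12 mice with TMM factors (x axis) against the value after correction for gene length (left) and without young mice 5 and 6 (right). Filled points were called in the setting of the panel and the dotted line marks equal values; Tomm6, Coa5, Cox15 and Tomm34 are filled in both panels.

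Several of these genes start close to a neighbour. A gene that starts up to 500 bases upstream on the opposite strand was found for 14 of the 41 tested genes (34.1%) and for 13.7% of all genes tested. Pairs that overlap at their starts were not counted. Of these 14 neighbours, 3 were called higher, 4 lower, 6 were not called and 1 was not tested. Of all genes tested, 22.4% were called higher and 23.0% lower. The pair of Timm8b and Sdhd, a membrane anchor of complex II, starts 52 bases apart, and both were called higher (0.58 and 0.57). After length correction Timm8b had -0.0064 and was not called, while Sdhd had 0.31 and was called higher (adjusted p = 0.0381 in edgeR). Coa5 and Unc50 start 69 bases apart, and both were called higher at 0.41. Adprm beside Sco1 was called higher (0.23), while Sco1 was not called. Without young mice 5 and 6, Adprm and Timm8b were not called (0.16 and 0.35), while Sdhd, Unc50 and Coa5 were. Of the neighbours called lower, Zfp142 lies beside Bcs1l (-0.81), Cebpz beside Ndufaf7 (-0.63), Cpsf7 beside Sdhaf2 (-0.48) and Parg beside Timm23 (-0.27), and these 4 import and assembly genes were not called. The lengths over exons of these 4 neighbours were 3604 to 7472 bases, against 1285 to 1492 bases for Sdhd, Unc50 and Adprm.

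The 10 genes without a test had 0 to 13 counts in any mouse. They are Ndufaf2, Ndufaf4, Ndufaf5, Ndufaf6, Sco2, Timm8a1, Timm8a2, Timm9, Timm10 and Tomm20l, and Tomm20l had 0 counts in all 12 mice. At a floor of 3 counts, 0 counts allow up to 0.188 to 0.643 CPM, depending on the library. Just inside the filter on low counts were Sdhaf1 (1.096 ± 0.37 CPM in young and 1.94 ± 0.46 CPM in aged mice) and Cox18 (1.77 ± 0.20 and 1.65 ± 0.37 CPM). Just outside were Ndufaf5 (0.539 ± 0.23 and 0.718 ± 0.43 CPM) and Timm10 (0.347 ± 0.24 and 0.527 ± 0.22 CPM).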

How the data were processed

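RNA was sequenced in pairs of reads from stranded libraries of 12 mice. The deposited values are raw counts of fragments per gene, which the authors obtained with featureCounts 2.0.0 over the exons of a UCSC annotation of mm10, with reverse-stranded counting and a mapping quality minimum of 60, the aligner being not given in the sources used here. That filter drops fragments that fit several places, which lowers genes with near-identical copies. Sco2 was the only one of the 51 genes whose exons overlap those of another gene on the same strand.

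Aged and young mice were compared with edgeR 4.0.16 in R 4.3.3 (filterByExpr, TMM, quasi-likelihood test, Benjamini-Hochberg over 9742 genes, threshold 0.05). The procedure was checked on simulated data for this comparison with 9674 genes, where it recovered 53.1% of 98 genes changed 1.5-fold and 88.9% of 99 changed 2-fold. It also called 8 unchanged genes. Genes were drawn independently there, and far fewer were changed than the real comparison called, so these rates need not hold for it. The biological coefficient of variation was 15.7%. Counting error and the floor of 3 counts cover sampling only, and p-values set the age difference against the spread between mice of the same age. They do not cover a difference that follows both the file numbers and age. Alternatives were DESeq2 1.42.0, limma-voom (limma 3.58.1), other scalings and filters, thinning to 4613239 counts, corrections for length and GC content, aged mice on either side of a gap in the file numbers, and leaving out mice. Length is that of the deposited table.

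The genes and lists were chosen with earlier results of these data known. Values by mouse are given, per role, for the gene with the smallest p, the largest and smallest log2 fold change, genes called lower, and genes beside the filter. Others, such as Tomm22, Tomm20, Tomm6, Tomm70a, Coa5 and Cox15, were chosen after their values were seen. Uqcc was matched to RefSeq as Uqcc1. Uqcc2, Uqcc3, Fmc1 and Atp23 were read in the table under older symbols. Of the other marker lists, classical monocytes had 2 of 8 genes higher and 1 lower, proliferation 2 of 7 lower (1 without young mice 5 and 6) and dendritic cells 1 of 2 tested lower. Plasma and B cells (2 tested) and T and NK cells (1 tested) had no call in edgeR (1 of 7 plasma and B cell genes was called higher in DESeq2), and erythroid cells and basophils no gene with enough counts for edgeR.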

Additional observations from a re-analysis of the deposited data

Results flagged for a closer look

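Among 82 groups of 6 values (41 genes in each age), 4 held a mouse far from the other 5, where chance gives about 1 in 20 groups. Sdhaf2 was highest in young mouse 2, at 41.4 CPM, with the next young mouse at 34.9 CPM. Coa3 was highest in young mouse 10, at 17.6 CPM (next 13.3 CPM), still below all aged mice. Cox19 was highest in young mouse 9, at 10.2 CPM (next 7.64 CPM). Timm13 was lowest in aged mouse 7, at 5.76 CPM (next 7.39 CPM), which places it among the young mice.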

How the results depend on the processing

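The count of 16 genes called higher became 4 after correction for gene length, 10 with the aged mice above the gap in file numbers only (15.3% of all genes tested) and 8 without young mice 5 and 6, and the median of 0.38 became 0.11 after length correction and 0.19 without those 2 mice. Cox19 and Timm8b turned to -0.011 and -0.0064 after length correction, where 10 further genes lost their call. Cox17, Coa4, Coa6, Tomm5, Timm10b and Timm23, not called in either fit, also turned below 0 there, with values from -0.14 (Timm23) to -0.03 (Coa4). The cause was not tested. Leaving out 1 mouse at a time gave 14 to 19 genes higher, 1 lower and medians of 0.29 to 0.43; 14 of the 16 were called each time. Other settings gave 12 to 19 genes higher. Without TMM factors the median of all genes shifted to -0.08, 17.3% of all genes were called higher and 28.4% lower, and Timm50 lost its call. Tomm34, Coa5, Cox15 and Tomm6 were called in all 26 alternatives. Mice shared 4 numbers between the ages, but same-numbered mice did not deviate together (correlations -0.25 to -0.07), so the numbers were not used as pairs; with the replicate block on these 8 mice 17 genes were called higher (18 without the block), 1 lower, with a median of 0.46. The GC correction used transcript sequences and was chosen after seeing the data, as was leaving out young mice 5 and 6. Depth limits genes with few counts, such as Sdhaf1.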
